A study of Mus musculus with 96 samples.

Results

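The common gamma chain and the JAK-STAT genes downstream of it were examined as 10 genes of the 24057 listed in the table: the receptor subunits Il2rg and Il4ra, the kinases Jak1, Jak2 and Jak3, the transcription factors Stat3, Stat5a and Stat5b, and the inhibitors Socs1 and Cish. They were chosen by gene symbol and not by a rule on measured values, though with earlier results of these data known. EL4 is a T-lymphoma cell line from a C57BL/6 mouse, the strain named in the labels (C57BL/6 N in the methods). Its cells were infected with viral particles carrying GFP and a short hairpin RNA (shRNA), either against luciferase (shLuc, called wild type or WT) or against Ctcf (called CTCF knockdown or CTCF-KD). GFP-positive cells were taken 5 days after infection, and single cells were captured on the Fluidigm C1 system for full-length SMARTer RNA-seq. There were 2 WT cultures (WT1 and WT2) and 2 CTCF-KD cultures (CTCFKD1 and CTCFKD2), with 24 cells sequenced from each, and WT1 and CTCFKD1 made up experiment 1. Each culture was loaded on its own capture circuit, so that culture, circuit and condition cannot be told apart within an experiment, and the methods do not settle whether CTCFKD1 and CTCFKD2 carried different hairpins.

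In T cells, the common gamma chain is the shared signalling subunit of the receptors for IL-2, IL-4, IL-7, IL-9, IL-15 and IL-21. Each receptor adds a partner chain, in some cases shared with another of these receptors. The gamma chain carries the kinase JAK3 and a partner chain carries JAK1. Ligand binding brings both kinases together to phosphorylate STAT proteins. STAT5A and STAT5B follow mainly IL-2, IL-7 and IL-15, STAT3 follows IL-21 as well as the IL-6 and IL-10 receptor families, and STAT6 follows IL-4. SOCS1 and CIS, the product of Cish, are induced by STATs and feed back to damp the signal.

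The sequences before the transcription starts are shown for the one of the 10 with the highest level, Il2rg, and for the 3 genes whose mean level was lower in both CTCF-KD cultures than in both WT cultures, Jak3, Stat3 and Stat5a. Each is the 250 bases upstream of a RefSeq start (GRCm38.p6), written 5′ to 3′ on the strand of the gene, with CpG dinucleotides in capitals. They lie at chrX:101268256-101268505 on the minus strand for Il2rg, chr8:71676133-71676382 on the plus strand for Jak3, chr11:100939541-100939790 on the minus strand for Stat3 and chr11:100859406-100859655 on the plus strand for Stat5a, whose more upstream start of 2 is shown.
Il2rg: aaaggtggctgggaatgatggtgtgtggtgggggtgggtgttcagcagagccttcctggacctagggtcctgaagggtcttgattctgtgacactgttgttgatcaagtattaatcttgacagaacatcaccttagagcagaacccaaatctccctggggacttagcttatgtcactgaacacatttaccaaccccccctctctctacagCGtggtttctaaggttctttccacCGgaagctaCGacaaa
Jak3: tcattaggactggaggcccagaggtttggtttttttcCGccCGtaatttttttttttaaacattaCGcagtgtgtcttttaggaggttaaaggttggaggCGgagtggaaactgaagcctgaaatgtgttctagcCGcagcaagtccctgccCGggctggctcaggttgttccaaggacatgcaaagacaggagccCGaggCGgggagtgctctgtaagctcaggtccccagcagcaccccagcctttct
Stat3: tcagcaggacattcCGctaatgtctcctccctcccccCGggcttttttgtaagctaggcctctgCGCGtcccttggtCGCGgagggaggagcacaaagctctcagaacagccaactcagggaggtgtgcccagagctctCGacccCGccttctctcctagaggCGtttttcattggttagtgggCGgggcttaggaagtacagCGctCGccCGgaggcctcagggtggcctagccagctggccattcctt
Stat5a: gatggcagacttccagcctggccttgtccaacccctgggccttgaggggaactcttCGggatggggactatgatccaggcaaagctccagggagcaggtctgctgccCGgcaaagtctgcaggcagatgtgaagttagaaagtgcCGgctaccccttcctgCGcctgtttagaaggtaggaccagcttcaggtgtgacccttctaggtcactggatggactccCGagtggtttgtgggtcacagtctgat
The Il2rg stretch held 3 CpG, Jak3 8, Stat3 13 and this Stat5a start 5, against a median of 6 over 32851 listed promoters, while the second Stat5a start held 21. All 10 genes had a window, and there were 12 windows in all because Stat5a and Stat5b had 2 each. The CTCF core CCANNAGNNGGC was searched on both strands of the 300-base windows, from 250 bases before to 50 after the start. It was found in 0 of the 12 windows and in 2.43% of all listed windows. The STAT motif TTCNNNGAA reads the same on both strands, and was found in 8.30% of all windows and in 1 of the 12, that of Cish. Cish is a classical STAT5 target, and its window held the motif 2 times at the start itself, at chr9:107296656-107296681 on the plus strand, with both matches in capitals.
Cish: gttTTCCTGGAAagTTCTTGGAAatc
At least 2 matches were found in 0.457% of all listed windows. A match describes letters only, and binding was not measured here.

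Of the 96 cells, 95 held at least 3000 genes with a value above 0 and were kept (24, 23, 24 and 24). Levels are given in TPM, a scale of transcript abundance that takes gene length and the sum over a cell into account. The whole reads behind them came to between 3232422 and 6192121 per culture, lowest in the culture labelled CTCFKD2, and the median number of genes per cell was 4635 to 4771 in WT and 5656 to 6172.5 in CTCF-KD. Intervals given for shares are exact binomial intervals over the cells of a culture, and do not cover the spread between cultures. Reads were not tagged by molecule, so a number of reads is not a number of molecules. By mean TPM, the target of the knockdown did not follow its label in one culture. The paper reports lower CTCF protein (Western blot) and mRNA (RT-qPCR) in both shCTCF populations than in shLuc. Ctcf averaged 60.3 ± 76.8 TPM (SD over cells) in WT1, 37.1 ± 45.5 TPM in WT2, 15.96 ± 27.4 TPM in CTCFKD1 and 44.9 ± 50.0 TPM in the culture labelled CTCFKD2. The log2 change over cultures was -0.79 (SE 0.66, limma adjusted p = 0.815). The mean of Ctcf was 3.78-fold lower in experiment 1 and 1.21-fold higher in experiment 2, a difference small beside the spread over cells. The counts of the 10 genes that need both CTCF-KD cultures are therefore also given without the culture labelled CTCFKD2, and the counts of the pathway lists also for experiment 1 alone. All 8 T-lineage markers were detected, with summed levels of 8105 and 8505 TPM in WT and 5977 and 6298 TPM in CTCF-KD. The summed levels of B-cell, myeloid, erythroid and fibroblast or epithelial markers were at most 4.13 TPM in any culture. Of 5 erythroid markers, 3 were among the genes listed. Ms4a1, Lyz2, Cd14, Krt8 and Epcam had no read, while others had a few, such as Cd79a (23), Itgam (29), Alas2 (10) and Col1a1 (17).

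The levels of the 10 genes spanned from no read to the 844 TPM of Il2rg (plot of single-cell values). Il2rg stood far above the others in every culture, Stat3 and Jak1 followed, then Stat5a, and Jak2, Stat5b and Jak3 lay lower. Il4ra and Socs1 were near the limit of detection, and Cish had no read in any cell. Over cultures, Il2rg did not overlap with any other gene, whereas Stat3, Jak1 and Stat5a overlapped with their neighbours in this order, as did Stat5b, Jak3 and Jak2. Across WT1 and WT2 the order of Stat3 and Jak1 was the same, but in the CTCF-KD cultures Jak1 (70.8 and 70.7 TPM) lay above Stat3 (54.9 and 51.3 TPM).

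**Figure D1:**
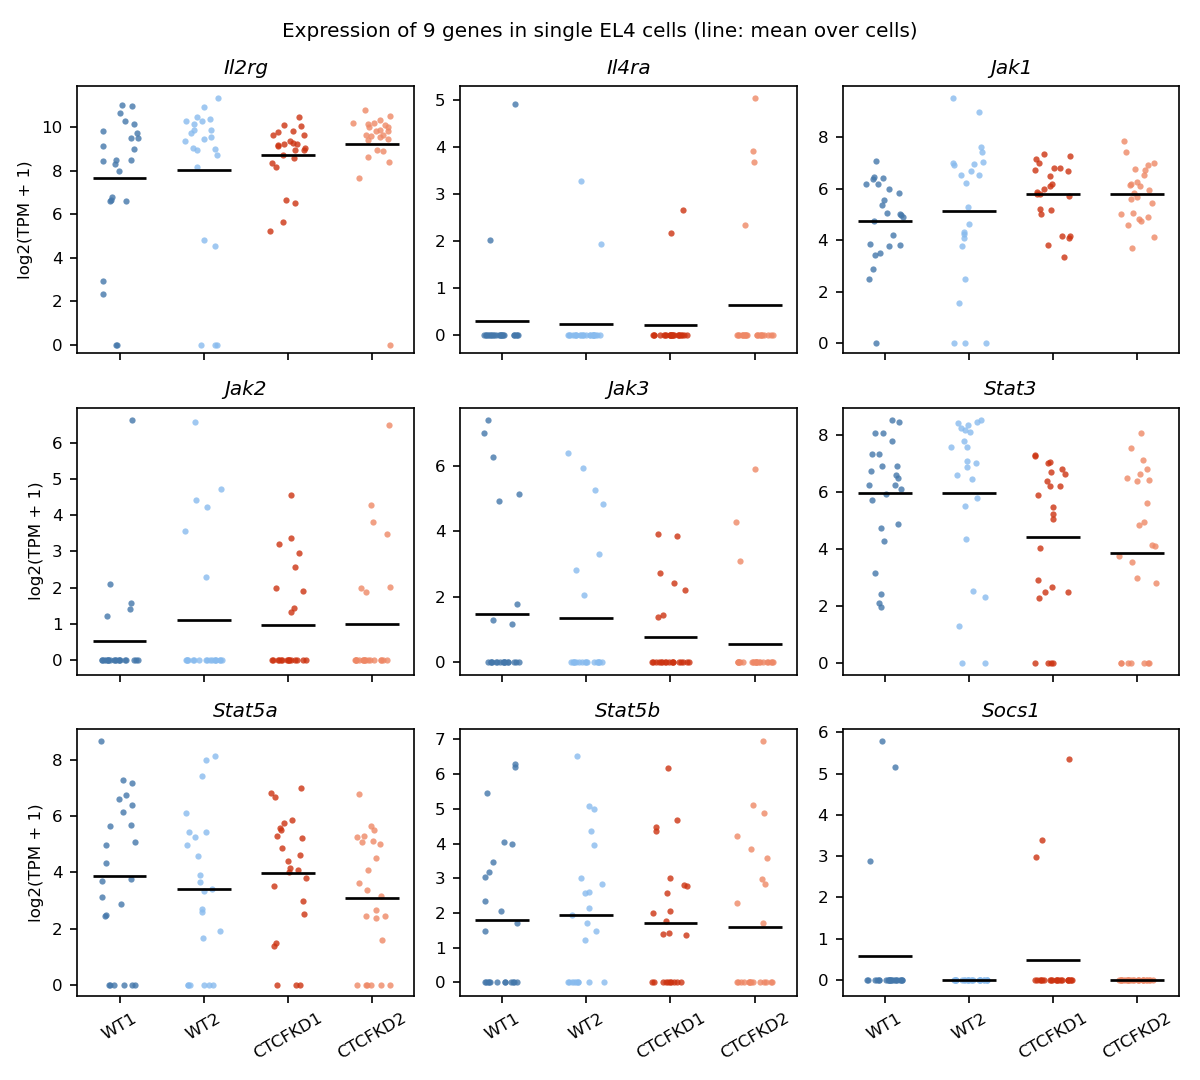
Single-cell values of the 9 genes with reads, as log2(TPM + 1) on the vertical axis, by culture on the horizontal axis (24, 23, 24 and 24 cells); each point is a cell and the line is the mean over cells. The axes differ between panels. Points at 0 are cells without a read, which are more frequent for Stat3 in CTCF-KD (4 and 7 cells) than in WT (0 and 2 cells).

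Among the receptor subunits, Il2rg had the highest level of the 10 genes, and its mean level was similar in all cultures. Il2rg lies at chrX:101264378-101268255 (minus strand, GRCm38) and shares 3878 bases with the same-strand, protein-coding GENCODE entry Gm20489, which was not among the genes listed. It averaged 598 ± 620 TPM (SD, n = 24 cells) in WT1, 779 ± 652 TPM (SD, n = 23 cells) in WT2, 571 ± 348 TPM (SD, n = 24 cells) in CTCFKD1 and 844 ± 405 TPM (SD, n = 24 cells) in the culture labelled CTCFKD2. The groups overlapped, and the values of the cultures of one experiment lay closer to each other than the 2 cultures of a condition. The log2 change was 0.02 (SE 0.33, limma adjusted p = 0.996). With the log taken in each cell before averaging it was 1.15 (limma adjusted p = 0.233). The 95 cells had a read of Il2rg in 22 of 24, 20 of 23, 24 of 24 and 23 of 24 cases, and in the WT cultures the remaining cells and a few with low values stretched the distribution downwards. The median cell held 357 TPM in WT1 against 570 TPM in CTCFKD1, and 703 TPM in WT2 against 847 TPM in the culture labelled CTCFKD2.

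Il4ra, which pairs with the gamma chain to bind IL-4, was detected in 2, 2, 2 and 4 cells and averaged 1.35, 0.504, 0.365 and 2.60 TPM in WT1, WT2, CTCFKD1 and the culture labelled CTCFKD2. A single cell carried 18 of the 20 reads in WT1. The cultures overlapped, the 2 experiments moved in opposite directions, and the log2 change was 0.24 (SE 0.73, limma adjusted p = 0.964).

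The other chains that pair with the gamma chain or with the IL-4, IL-13 and TSLP receptors were mostly present at a low level. Of 8 such genes, Il13ra1 had no read, and Il2rb, needed for IL-2 and IL-15 signalling, had a value in 1 cell only. That cell was in the culture labelled CTCFKD2, where Il2rb averaged 1.75 TPM, and a single value does not give its number of reads. Of the 6 genes tested, none passed, 1 was lower and 1 was higher in both experiments, against 26.7% and 30.1% of all 11980 genes tested, and their median log2 change was 0.79 against 0.04 over all genes tested. Il9r, the IL-9 partner, had the highest level of the partner chains in each of the 4 cultures, at 45.4 TPM in WT1, 49.4 TPM in WT2, 23.6 TPM in CTCFKD1 and 24.02 TPM in the culture labelled CTCFKD2, and was detected in 40 cells. The WT values lay above the CTCF-KD values, but the log2 change of -0.96 (SE 0.51, limma adjusted p = 0.721) did not pass, and it was 0.19 where the log was taken in each cell before averaging. Il15ra, the high-affinity IL-15 chain, went the other way, at 2.64 TPM in WT1, 2.63 TPM in WT2, 14.97 TPM in CTCFKD1 and 15.6 TPM in the culture labelled CTCFKD2. Both experiments gave a similar log2 change (2.13 and 2.19), with 2.16 overall (SE 0.85, limma adjusted p = 0.630), on 174 reads in 19 cells. With the log taken in each cell before averaging it was 0.61 (limma adjusted p = 0.401). Of the 8 cytokines that signal through these receptors, 6 had no read (Il2, Il4, Il7, Il9, Il13 and Il21), and Il15 and Tslp had 23 and 8 reads. A cell with a read of Il2rg and of at least 1 of Il2ra, Il2rb, Il4ra, Il7r, Il9r and Il21r was found 68 times among the 95 cells, in 62.5%, 65.2%, 83.3% and 75% of the cells of WT1, WT2, CTCFKD1 and the culture labelled CTCFKD2.

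**Figure D2:**
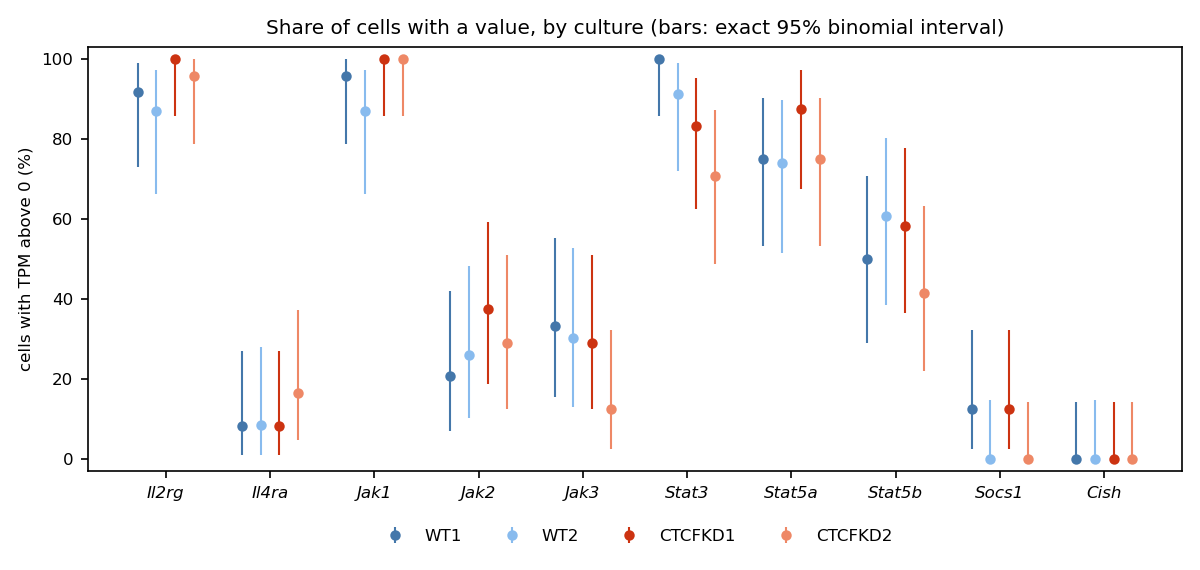
Share of cells with a TPM above 0 for the 10 genes, in percent, with 1 point for each culture and exact 95% binomial intervals as bars. Il2rg and Jak1 were found in nearly all cells and Cish in none, and Stat3 is the gene of high share that was found in fewer cells of both CTCF-KD cultures.

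Of the kinases, Jak1 was found in nearly every cell, whereas Jak3, the partner of the gamma chain, was found in a minority and was lower in both CTCF-KD cultures. Jak1 (chr4:101152367-101265282, minus strand) averaged 40.3 ± 33.8 TPM (SD, n = 24 cells) in WT1, 113 ± 174 TPM (SD, n = 23 cells) in WT2, 70.8 ± 46.9 TPM (SD, n = 24 cells) in CTCFKD1 and 70.7 ± 53.1 TPM (SD, n = 24 cells) in the culture labelled CTCFKD2. Both CTCF-KD values lay between the WT values, and 1 cell held 36.8% of the Jak1 reads of WT2. The log2 change was 0.06 (SE 0.57, limma adjusted p = 0.989), and 0.86 with the log taken in each cell before averaging (limma adjusted p = 0.437). Jak1 was detected in 23 of 24 and 20 of 23 WT cells and in 24 of 24 cells of each CTCF-KD culture.

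Jak3 (chr8:71676296-71690575, plus strand) averaged 18.7 ± 44.7 TPM (SD, n = 24 cells) in WT1, 9.93 ± 22.2 TPM (SD, n = 23 cells) in WT2, 1.86 ± 4.02 TPM (SD, n = 24 cells) in CTCFKD1 and 3.55 ± 12.5 TPM (SD, n = 24 cells) in the culture labelled CTCFKD2. The 2 conditions did not overlap over cultures. The level was 10.0-fold lower in experiment 1 and 2.80-fold lower in experiment 2, and the log2 change was -2.02 (SE 0.90, limma p = 0.0629, adjusted p = 0.665). With the log taken in each cell before averaging it was -0.75 (limma adjusted p = 0.335). The values rest on 262, 86, 22 and 24 reads in 8, 7, 7 and 3 cells. With the highest cell of each culture left out, the means were 12.004, 6.57, 1.33 and 1.14 TPM and the conditions still did not overlap. Insl3 overlaps Jak3 by 1362 bases on the same strand and had 0 reads. The sources used here do not state how reads that fit both genes were counted, so this does not show that Jak3 was unaffected. Cells with a read of Il2rg, Jak1 and Jak3 together, with no partner chain required, numbered 22 of 95 (6, 6, 7 and 3), and 63 cells had Il2rg and Jak1 without a read of Jak3.

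Jak2, which serves other cytokine receptors such as that of interferon gamma, averaged 4.44, 7.46, 2.54 and 5.80 TPM in WT1, WT2, CTCFKD1 and the culture labelled CTCFKD2, in 5, 6, 9 and 7 cells. The cultures overlapped and the log2 change was -0.47 (SE 0.90, limma adjusted p = 0.935). In WT1, 1 cell carried 90% of the Jak2 reads. Jak1 made up 54.6%, 74.8%, 84.3% and 78.4% of the summed TPM of Jak1, Jak2, Jak3 and Tyk2 in WT1, WT2, CTCFKD1 and the culture labelled CTCFKD2, whereas Jak3 made up 25.3%, 6.57%, 2.22% and 3.94%. The share of Jak1 was thus higher, and that of Jak3 lower, in both CTCF-KD cultures than in either WT culture.

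**Figure D3:**
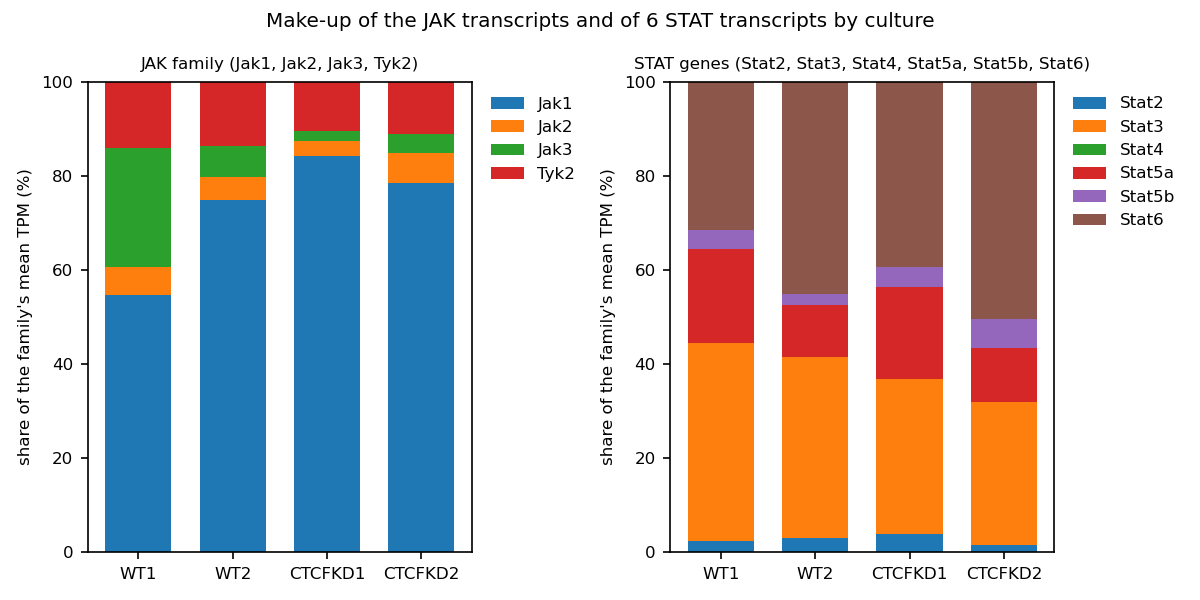
Make-up of the JAK transcripts (left) and of Stat2, Stat3, Stat4, Stat5a, Stat5b and Stat6 (right) in the 4 cultures, as the percent of the summed mean TPM of the genes in each panel on the vertical axis. Jak1 fills most of each JAK bar, the Jak3 segment is largest in WT1 (25.3%), and Stat3 and Stat6 together fill most of each bar on the right.

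Stat3, the main transducer of IL-6 and IL-10 type signals, had the lowest unadjusted p of the 9 genes tested. Its mean and its share of positive cells were lower, and its CV higher, in both CTCF-KD cultures than in both WT cultures. Stat3 (chr11:100885098-100939540, minus strand) averaged 114 ± 108 TPM (SD, n = 24 cells) in WT1, 153 ± 130 TPM (SD, n = 23 cells) in WT2, 54.9 ± 53.8 TPM (SD, n = 24 cells) in CTCFKD1 and 51.3 ± 69.5 TPM (SD, n = 24 cells) in the culture labelled CTCFKD2. Both WT values lay above both CTCF-KD values, and the level was 2.08-fold lower in experiment 1 and 2.99-fold lower in experiment 2. The log2 change was -1.30 (SE 0.39, limma p = 0.0142), which did not pass adjustment over 11980 genes (adjusted p = 0.585). The median cell held 82.1 TPM in WT1 and 127 TPM in WT2, against 40.1 TPM in CTCFKD1 and 16.5 TPM in the culture labelled CTCFKD2. Among cells with a read of Stat3 the medians were 82.1 and 134 TPM in WT and 65.6 and 48.0 TPM in CTCF-KD, so that the level was lower in both CTCF-KD cultures among those cells too.

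Stat5a and Stat5b, neighbours of Stat3 on chromosome 11, differed from each other in level. Stat5a (chr11:100859351-100885169, plus strand) averaged 53.7 ± 88.2 TPM (SD, n = 24 cells) in WT1, 44.1 ± 80.3 TPM (SD, n = 23 cells) in WT2, 32.3 ± 36.03 TPM (SD, n = 24 cells) in CTCFKD1 and 19.4 ± 25.2 TPM (SD, n = 24 cells) in the culture labelled CTCFKD2. The conditions did not overlap, with Stat5a 1.66-fold lower in experiment 1 and 2.28-fold lower in experiment 2. The log2 change was -0.93 (SE 0.54, limma adjusted p = 0.752), and it was -0.12 where the log was taken in each cell before averaging. The highest cells reached 404 and 283 TPM in WT and 128 and 109 TPM in CTCF-KD, whereas the medians over all cells overlapped (15.8, 9.60, 18.5 and 8.57 TPM). The 3′ ends of Stat3 and Stat5a face each other and overlap by 72 bases in the GENCODE annotation, and the sources used here do not state whether counting used strand, so reads in that stretch cannot be told apart.

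Stat5b (chr11:100780731-100850724, minus strand) averaged 10.8, 9.72, 7.24 and 10.2 TPM in WT1, WT2, CTCFKD1 and the culture labelled CTCFKD2. The cultures overlapped and the log2 change was -0.22 (SE 0.82, limma adjusted p = 0.972). Both Stat5 genes had a read in 40 of the 95 cells, Stat5a alone in 34, Stat5b alone in 10 and neither in 11. Stat5a and Stat5b are close paralogs, so reads that map equally well to both were left out by the unique mapping of the authors.

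Stat3 made up 42.2%, 38.5%, 32.96% and 30.4% of the summed TPM of Stat2, Stat3, Stat4, Stat5a, Stat5b and Stat6 in WT1, WT2, CTCFKD1 and the culture labelled CTCFKD2, and Stat6, the IL-4 factor, made up 31.6%, 45.1%, 39.4% and 50.5%. The sum over these 6 genes was 271 and 398 TPM in WT and 167 and 169 TPM in CTCF-KD. Tyk2, the JAK kinase of the type I interferon and IL-10 receptors, had a log2 change of -0.59 (SE 0.80, limma adjusted p = 0.893). Stat4 had no read.

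The inhibitors among the 10 genes were hardly present. Socs1 had 16 reads in 3 cells of WT1 and 11 reads in 3 cells of CTCFKD1, and 0 reads in WT2 and in the culture labelled CTCFKD2. A floor of 3 cells puts the share of cells with a read at up to 13.04% and 12.5%, and the exact 95% binomial intervals of the plot of detection reach 14.8% and 14.2%. These limits cover cells with a read and not cells that express the gene. Its log2 change was -0.29 (SE 1.00, limma adjusted p = 0.969). Cish had 0 reads in each culture, with the same limits on the share (14.2% in WT1 and CTCFKD1), which allows a level of up to 0.484 to 0.928 RPM (reads per 1e6 reads, for 3 reads per culture). Ptpn6, which encodes the phosphatase SHP-1, averaged 1738 and 1551 TPM in WT and 1009 and 1851 TPM in CTCF-KD. Of 13 inhibitors tested, 0 passed, and 3 were lower and 3 higher in both experiments (26.7% and 30.1% of all genes), with a median log2 change of -0.26. Pias3, an inhibitor of STAT3, had the lowest change of the list at -1.63 (SE 0.57, limma adjusted p = 0.610), from 40.4 and 65.3 TPM in WT to 17.6 and 14.4 TPM in CTCF-KD, and -0.90 with the log taken in each cell. Socs4 had the highest at 0.99 (SE 0.75, limma adjusted p = 0.795), on 59 reads.

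Over the pathway as a whole, 0 of the 9 genes tested passed an adjusted p of 0.05 in limma, and neither did any other gene (background 0%, 0 of 11980). At an unadjusted p under 0.05, 574 genes were higher and 338 lower, and 1 of the 9, Stat3, was among the lower genes (background 2.82%). Jak3, Stat3 and Stat5a, 3 of the 9, had a mean TPM below both WT cultures in both CTCF-KD cultures, against 16.9% of all genes tested. Without the culture labelled CTCFKD2, 7 of the 9 lay below both WT cultures in CTCFKD1 (Il2rg, Il4ra, Jak2, Jak3, Stat3, Stat5a and Stat5b), against 32.3% of all genes. Without CTCFKD1, Jak3, Stat3 and Stat5a lay below both WT cultures in the culture labelled CTCFKD2, as they must, and no other of the 9 did, against 26.6% of all genes. In both experiments, 4 of the 9 were lower (Jak2, Jak3, Stat3 and Stat5a) and 0 were higher, against 26.7% and 30.1% of all genes. In experiment 1 alone, 8 were lower and 1 was higher, against 46.3% and 51.7% of all genes. The median log2 change was -0.29 over the 9 genes and 0.04 over all genes tested.

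**Figure D4:**
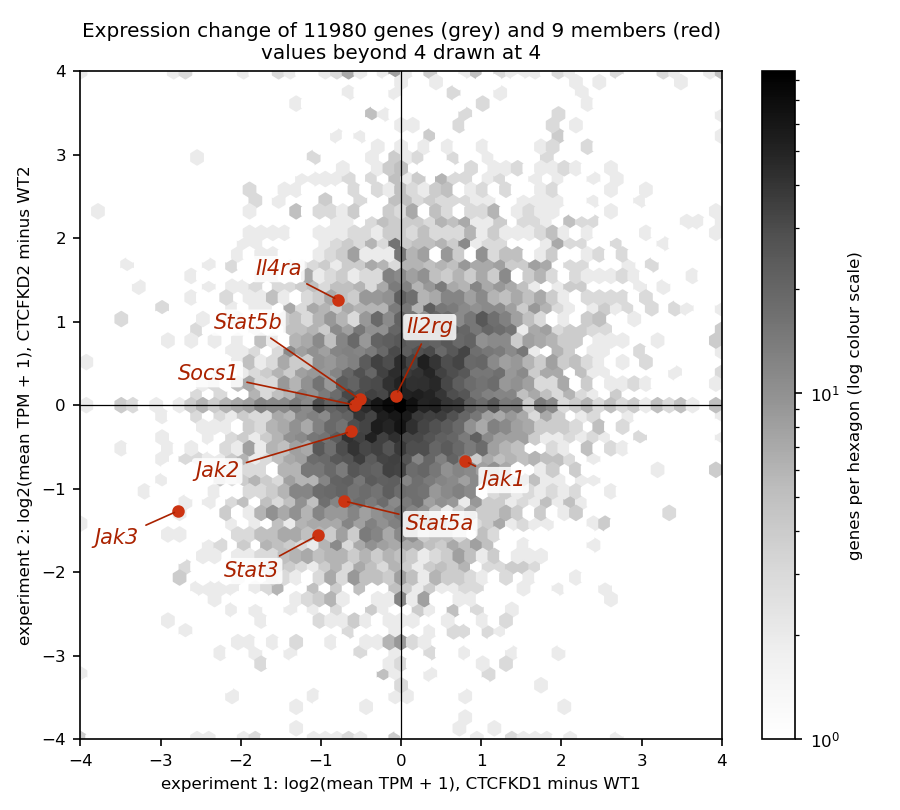
Log2 change of the mean TPM + 1 in experiment 1 (horizontal axis) and experiment 2 (vertical axis), with 11980 genes as grey hexagons (darker for more genes) and 9 of the 10 genes as red points. Stat3 (-1.04 and -1.56), Jak3 (-2.78 and -1.26) and Stat5a (-0.72 and -1.15) lie in the lower left, Il2rg sits near the centre, and Jak1 and Il4ra moved in opposite directions in the 2 experiments.

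The share of cells with a read differed in both directions. Stat3 was detected in 100%, 91.3%, 83.3% and 70.8% of the cells of WT1, WT2, CTCFKD1 and the culture labelled CTCFKD2, a mean difference of -18.6 percentage points. Jak3 was detected in 33.3%, 30.4%, 29.2% and 12.5%, a mean difference of -11.1 percentage points. WT2 (7 of 23 cells) and CTCFKD1 (7 of 24 cells) had the same number of Jak3-positive cells. Their shares differ only because fewer cells of WT2 were kept. For these 2 genes both CTCF-KD cultures lay below both WT cultures, against 5.96% of all genes. Il2rg, Jak1 and Jak2 lay above in both CTCF-KD cultures, by 8.61, 8.61 and 9.87 percentage points on average, against 36.2% of all genes. Without the culture labelled CTCFKD2, Stat3 and Jak3 lay below both WT cultures in CTCFKD1 (background 10%), with differences of -12.3 and -2.72 percentage points from the WT mean, and Il2rg, Jak1, Jak2 and Stat5a lay above (background 57.4%). By the mean share, 3 of the 10 genes (Jak3, Stat3 and Stat5b) were found in fewer CTCF-KD cells, against 25.6% of all genes, and with detection set at TPM above 10 there were 5, with Jak2 and Socs1 added, against 29.5%. An exact permutation test over cultures (two-sided) gave p = 0.333 for each of the 5 genes that lay apart in all 4 cultures, the smallest that 2 cultures against 2 can give.

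Cells were also thinned to 80000 reads each, which left 24, 23, 24 and 23 cells. Thinning makes the reads equal and not the number of genes detected. After it, the median number of genes per cell was 4153.5 and 3970 in WT and 5245 and 5223 in CTCF-KD. The higher number of genes in CTCF-KD thus remained, and thinned shares do not take it into account. Stat3 and Jak3 again lay below in both CTCF-KD cultures (background 4.49%), with mean differences of -16.9 and -12.8 percentage points. Il2rg and Jak1 again lay above (background 38.8%), by 17.03 and 10.8 percentage points, while Jak2 was tied at 26.1% in WT2 and the culture labelled CTCFKD2. Stat5a gave 6.79 percentage points with all reads and 10.6 thinned, and Stat5b gave -5.43 and -0.09.

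Cell-to-cell variation was measured as the coefficient of variation (CV), that is, the SD of log2(TPM + 1) across the cells of a condition divided by their mean. It could be read for 6 of the 10 genes, those with a mean log2(TPM + 1) above 1. Across 7843 genes, CTCF-KD cells had on average a lower CV than WT cells (mean difference -0.279, SD 0.406), and a gene was called when it lay more than 1 SD from that mean. Stat3 and Jak3 were called increased, 2 of the 6 (background 7.68%), and 0 of the 6 were called decreased (background 11.3%). Without the culture labelled CTCFKD2, only Stat3 of the 6 was called increased (background 7.87%), with a difference of 0.189 against 0.0399 for Jak3.

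Stat3 had a CV of 0.399 across the WT cells and of 0.660 across the CTCF-KD cells, with a difference of 0.260 in experiment 1 and 0.278 in experiment 2. By culture it was 0.329, 0.469, 0.589 and 0.747. CV falls with the mean, and the mean of Stat3 was lower in CTCF-KD. Genes of the same mean as Stat3 had a median CV of 0.447 in WT and 0.618 in CTCF-KD, so that Stat3 differed from them by -0.0480 and 0.0418. Jak3 went from 1.70 to 2.18, but its difference was -0.00796 in experiment 1 and 1.13 in experiment 2, so its call rests on the culture labelled CTCFKD2, where 3 cells had a read.

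Il2rg and Jak1 went the other way, from 0.430 to 0.197 and from 0.455 to 0.191, which is within 1 SD of the mean difference of all genes. By culture, Il2rg had a CV of 0.422 and 0.444 in WT and 0.158 and 0.227 in CTCF-KD, and Jak1 had 0.338 and 0.543 in WT and 0.204 and 0.181 in CTCF-KD. Set against genes of the same mean, Il2rg varied more, by 0.212 in WT and 0.0674 in CTCF-KD, and Jak1 less, with differences of -0.133 and -0.202. Stat5a (0.743 and 0.621) and Stat5b (1.11 and 1.20) were not called.

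**Figure D5:**
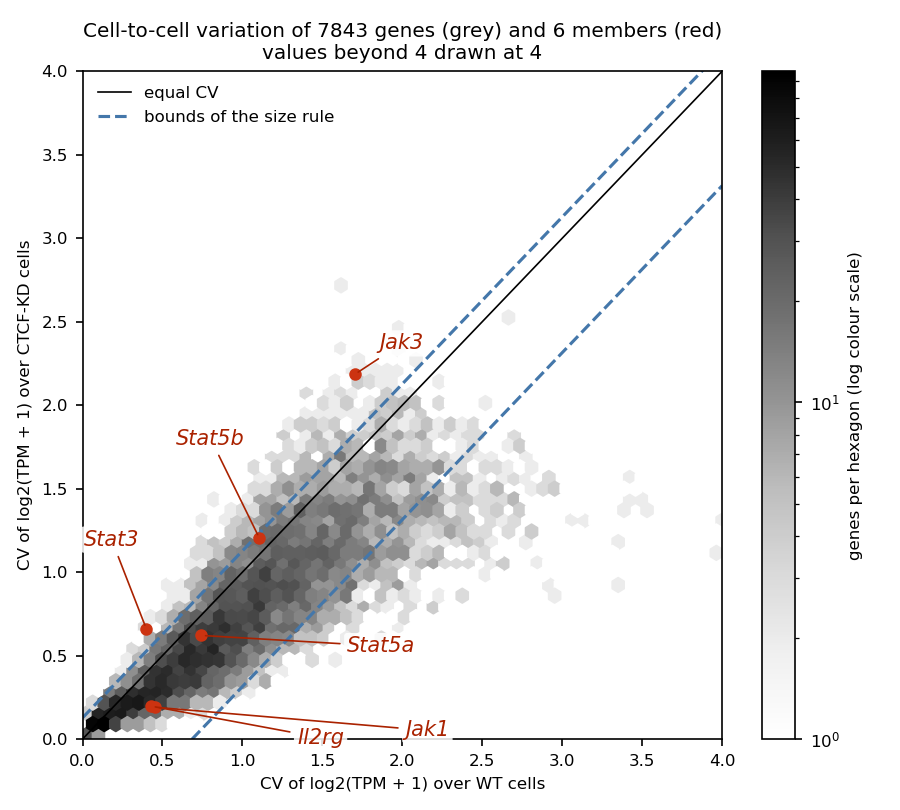
CV of log2(TPM + 1) over 47 WT cells (horizontal axis) and 48 CTCF-KD cells (vertical axis) for 7843 genes (grey hexagons, darker for more genes) and 6 genes of the pathway (red). The solid line marks equal CV and the dashed lines are the bounds at 1 SD from the mean difference. Stat3 and Jak3 lie above the upper bound, and Il2rg and Jak1 below the line of equal CV.

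Tested over cultures, 329 of 7823 genes had a changed CV (background 4.21%, 324 of them lower in CTCF-KD), and none of the 6 genes was among them. The difference was -0.240 for Il2rg (SE 0.0646, limma adjusted p = 0.0603), -0.248 for Jak1 (SE 0.0780, limma adjusted p = 0.0825) and 0.269 for Stat3 (SE 0.109, limma adjusted p = 0.144). With the replicate number as a block, which pairs the cultures of an experiment, Il2rg (limma adjusted p = 0.00833) and Jak1 (limma adjusted p = 0.00676) passed as lower, 2 of the 6 against 19.9% of all genes (1557 of 7823), and Stat3 did not (limma adjusted p = 0.0632). The differences were the same with the block, and the SE was 0.0713 for Il2rg, larger than without it, and 0.0719 for Jak1. The block leaves less residual freedom per gene. These p-values rest in effect on variance that limma pools over genes, and not on each gene's own spread between cultures. Without the culture labelled CTCFKD2, 0 of 7823 genes passed, and the differences were -0.275 for Il2rg, -0.237 for Jak1 and 0.190 for Stat3.

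Genes downstream of the STATs lay in both directions. Of 12 targets of STAT3, STAT5 or STAT6, 0 passed the test, 5 were lower and 4 higher in both experiments (26.7% and 30.1% of all genes), and the median log2 change was -0.08. Pim2, a survival kinase, had the highest change of the list at 0.62 (SE 0.43, limma adjusted p = 0.784), from 52.2 and 45.01 TPM in WT to 87.8 and 64.1 TPM in CTCF-KD. Nfil3, a transcription factor, had the lowest at -1.45 (SE 0.97, limma adjusted p = 0.776), from 29.6 and 31.4 TPM to 27.2 and 3.72 TPM, and it was -0.29 with the log taken in each cell before averaging. Of 10 interferon-induced genes, 7 were tested, 0 passed, and 2 were lower and 0 higher in both experiments, against 26.7% and 30.1% of all genes. The 2 were Gbp2, with 181 reads in 3 WT cells and 0 reads in the CTCF-KD cells, and Irf7, with 5 reads in 3 WT cells.

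Of 16 other receptors that couple to JAK kinases, 12 were tested and 0 passed, with 4 lower and 3 higher in both experiments (26.7% and 30.1% of all genes) and a median log2 change of -0.43. Il10ra, which signals through STAT3, had the lowest change at -2.76 (SE 0.95, limma adjusted p = 0.610), with 20.8 TPM in WT1, 99.6 TPM in WT2, 8.75 TPM in CTCFKD1 and 3.88 TPM in the culture labelled CTCFKD2. With the log taken in each cell before averaging, its change was -0.99. Ifnar2, a chain of the type I interferon receptor, had the highest at 1.21 (SE 0.95, limma adjusted p = 0.798), with 14.5, 4.47, 35.5 and 11.5 TPM. In experiment 1 alone, 2 of 6 partner chains, 6 of 13 inhibitors, 7 of 12 STAT targets, 6 of 7 interferon-induced genes and 7 of 12 of these receptors were lower, against 46.3% of all genes.

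The correlations between the 6 genes over cells were low when the cultures were pooled and differed from culture to culture. Pearson r of log2(TPM + 1) over 95 cells, after removal of the culture means, ranged from -0.159 (Jak3 and Stat3) to 0.261 (Il2rg and Stat5a) over the 15 pairs, and r of Il2rg with Jak1 was 0.03. In single cultures of 23 or 24 cells, r ranged from -0.520 (Jak3 and Stat5a in the culture labelled CTCFKD2) to 0.516 (Jak1 and Stat3 in CTCFKD1), and 3 of the 15 pairs had the same sign in all 4 cultures. Jak1 and Stat3 had r = -0.0953 in WT1, -0.0146 in WT2 and 0.305 in the culture labelled CTCFKD2. All points share library and depth, and no p is given. The genes most like each were Gm2a (r = 0.512) and Cd3g (r = 0.465) for Il2rg, Nt5c (r = 0.512) and H2-K1 (r = 0.458) for Jak1, and Coq7 (r = 0.417) and Gnl3l (r = 0.372) for Stat3. For Stat5a Gng10 had r = 0.456, and for Stat5b they were Usp46 (r = 0.421) and Gstm1 (r = 0.418). These were picked as the highest r among 7843 genes, so they are high by selection, and the r that such a search gives by chance was not computed. Correlation with the number of genes detected per cell ranged from -0.09 for Jak3 to 0.31 for Stat5a. A cell held a read of 5 of the 10 genes in the median in WT1, WT2 and CTCFKD1 and of 4 in the culture labelled CTCFKD2.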

How the data were processed

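The authors aligned the reads to GRCm38 with STAR, kept unique alignments, counted them with HTSeq on RefSeq genes and deposited the values as TPM of all 96 cells, with no cell filter applied to the deposited table. Cells under 3000 genes were left out here, which removed 1 cell with 81 genes. Whole reads were recovered from the TPM steps (all 504605 values above 0 lay within 0.001 of a whole number, with the smallest step taken as 1 read). They were used for depth, for thinning and for the read counts, shares of reads and RPM given here, and not for the tests of expression or CV. The recovery was tested on simulated reads, and limma on simulated cultures.

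Tests across genes used limma 3.58.1 (R 4.3.3; trend, two-sided) on log2(mean TPM over the cells of a culture + 1), with genes above 1 on the log2(TPM + 1) scale in at least 2 cells and Benjamini-Hochberg adjustment over all 11980 genes; a fold change on this scale understates low genes. TPM are not counts, so no count model was fitted. The culture was the replicate, and p-values measure the spread between these cultures, with variance pooled over genes by limma. The replicate number pairs the cultures, since the methods give an initial experiment and a second knockdown, and deviations from the condition means of same-numbered cultures correlated at 0.275 over 7843 genes. CV calls followed the rule of the methods. The CV of genes of the same mean is a running median over genes. The 10 genes and Ctcf are named, and in each pathway list those past adjusted p 0.05 or, with none, the highest and lowest log2 change among genes of the same sign in both experiments. The most similar genes are the 2 with the highest r for genes found in at least 50% of the cells. Other genes of the lists were named after their values were seen. Some genes that these rules name are not reported here. The genes and lists were chosen with earlier results of these data known. Gene positions are from GENCODE on GRCm38 and promoters from RefSeq on GRCm38.p6. Alternatives were the pseudocount, the scale, the filters, centring, the block and each culture left out.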

Additional observations from a re-analysis of the deposited data

How the results depend on the processing

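Stat3, Jak3 and Stat5a were lower in CTCF-KD under all 12 alternatives for expression, and none of the 10 genes passed an adjusted p of 0.05 in any, with 0.130 to 0.839 for Stat3. For Stat3, Jak3 and Stat5a, the block and the fits with a culture left out could not change the sign. Both of their CTCF-KD means lay below both WT means. With the log taken in each cell before averaging, 44 genes were called higher and 2 lower (0 and 0 otherwise), and Jak2 (0.15) and Il9r (0.19) changed sign. With the replicate block, the count of genes called in expression stayed at 0, and in CV 24 genes were higher and 1557 lower in place of 5 and 324. The median log2 level of the cultures differed from their mean by -0.15 to 0.12, and with medians centred the change of Il2rg was -0.032.

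With each culture left out, the log2 change ranged from -1.51 to -1.09 for Stat3, from -2.45 to -1.60 for Jak3, from -1.29 to -0.58 for Stat5a, from -0.26 to 0.31 for Il2rg, from -0.46 to 0.94 for Il4ra, from -0.67 to 0.79 for Jak1, from -0.94 to 0.0041 for Jak2, from -0.45 to 1.1e-05 for Stat5b and from -1.45 to 0.87 for Socs1. The CV difference of Stat5b over cultures ranged from -0.037 to 0.23, and that of Jak3 was -0.00796 in experiment 1 alone. With cultures left out, CV counts were 0 to 1 higher and 0 to 653 lower, and the number of the 10 genes below WT was 3 to 7, against 37.9% of all genes without WT1 (5 genes) and 29.8% without WT2 (5 genes). These, the leave-out of the highest cell of each culture (4 genes below, against 13.2%), the detection counts without the culture labelled CTCFKD2 (2 genes below and 4 above) and the list counts in experiment 1 were chosen after seeing the data. With detection set at TPM above 10, 5 of the 10 genes in place of 3 were found in fewer CTCF-KD cells, against 29.5% in place of 25.6% of all genes. The cause of these shifts was not tested. Few reads lay behind Il4ra (59), Jak3 (394), Socs1 (27) and Cish (0).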
